A study of Mus musculus with 2 samples.

Results

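Fatty acid oxidation and ketogenesis genes were followed through the mouse colonic epithelium as a list of 32 named genes, out of 31053 genes in the deposited single-cell tables. The members were chosen by symbol and not by their values here. They are the PPAR regulators Ppara, Ppard and Pparg with the coactivator Ppargc1a, the carnitine shuttle, the enzymes of mitochondrial and peroxisomal β-oxidation, 2 acyl-CoA thioesterases, the ketone body enzyme Bdh1, and the lipid genes Pdk4, Angptl4, Plin2, Fabp2 and Cd36. All 32 had at least 1 unique molecular identifier (UMI, 1 counted mRNA molecule) in each library.

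The study made 2 libraries of dissociated mouse colon epithelium, 1 per group. The first, the library labelled whole epithelium (called epithelium-labelled from here on), was taken from untreated animals of genotype c-Kit-creERT2. The second, the GFP-labelled library, was taken from c-Kit-creERT2;Rosa26-mTG animals given 1 intraperitoneal injection of tamoxifen (1 mg per 20 g), from which GFP-positive cells derived from Kit-expressing cells were sorted. Both groups carry c-Kit-creERT2, a tamoxifen-dependent Cre under the control of Kit, and the mTG reporter switches to GFP in cells where Cre has acted. The number of mice per library, their ages and the time from injection to collection are not given in the sources used here. Genotype, tamoxifen and sorting differ together between the libraries and cannot be told apart. The libraries also differ in sex-linked transcripts: Xist was at 0.0652 CPM (counts per 1000000 UMIs) in the epithelium-labelled library and at 749.8 CPM in the GFP-labelled library. The Y-linked gene Ddx3y was at 35.4 CPM in the former and at 0 in the latter. By these transcripts the former holds male cells and the latter female cells. Sex therefore cannot be told apart from genotype, tamoxifen and sorting either.

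In the records each count matrix stands under the other library. Each was assigned to the library whose barcode list has the same length, 13967 barcodes for whole epithelium and 13575 for GFP. Every direction between the libraries depends on that assignment and reverses if it is wrong. After filtering, 7762 and 5767 cells were kept, with median depths of 14160 and 15821 UMIs. The kept barcodes of the libraries share 19 sequences. The epithelial marker Epcam was at 1792 and 1926 CPM, the leukocyte gene Ptprc at 6.97 and 1.46 CPM, and Kit at 15.2 and 7.82 CPM. Each group has a single library, so nothing was tested. Intervals are exact 95% intervals that cover counting error only. A gene is called higher or lower where summed CPM differed at least 1.5-fold with at least 20 UMIs over both sums.

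β-oxidation shortens fatty acids inside mitochondria. Long chains are joined to carnitine by Cpt1a, carried across the inner membrane by Slc25a20 and released by Cpt2. Chain-length-specific dehydrogenases, a hydratase, a second dehydrogenase and a thiolase then remove acetyl-CoA, with electrons leaving through the flavoproteins Etfa, Etfb and Etfdh. PPAR nuclear receptors bind fatty acids and induce many of these genes. In the colon, absorptive colonocytes burn fatty acids, above all bacterial butyrate, and can pass on ketone bodies, while the crypt base holds dividing stem and transit-amplifying cells.

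Promoter windows of 300 bases, 250 before and 50 after the annotated start, were found in the RefSeq tables (GRCm38.p6) for 29 of the 32 members. A direct repeat with 1 spacer base, AGGTCANAGGTCA, is the usual PPAR binding motif. It was searched on both strands with at least 10 of its 12 fixed letters, which allows overlap with other motifs built on the same repeat unit. It was found in 5 of 32 member windows (15.6%), those of Slc25a20, Plin2, Cd36, Echs1 and Etfa, against 3.86% of all 32851 windows searched. The exact motif was in 0 member windows and in 0.0396% of all windows. The repeat unit AGGTCA alone was in 8 of 32 member windows, against 16.3% of all windows. The tolerance was chosen after other forms of the motif had been counted, so these shares are a description. A match is a stretch of letters and not a shown binding site.

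The windows of Slc25a20 (chr9:108661886-108662185, plus strand) and Plin2 (chr4:86670010-86670309, minus strand) are shown because both genes carry a match and take different courses along the crypt. Capitals mark the match. That of Hadhb (chr5:30155003-30155302, plus strand) is shown because Hadha and Hadhb, the α and β subunits of the mitochondrial trifunctional protein, start there in opposite directions, and capitals mark the 228 bases shared with the window of Hadha.
Slc25a20: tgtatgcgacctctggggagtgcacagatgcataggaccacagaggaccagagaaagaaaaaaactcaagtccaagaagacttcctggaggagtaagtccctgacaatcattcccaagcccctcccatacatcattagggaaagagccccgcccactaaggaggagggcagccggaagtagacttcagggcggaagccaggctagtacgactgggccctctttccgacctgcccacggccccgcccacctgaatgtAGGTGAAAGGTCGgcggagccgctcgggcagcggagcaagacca
Plin2: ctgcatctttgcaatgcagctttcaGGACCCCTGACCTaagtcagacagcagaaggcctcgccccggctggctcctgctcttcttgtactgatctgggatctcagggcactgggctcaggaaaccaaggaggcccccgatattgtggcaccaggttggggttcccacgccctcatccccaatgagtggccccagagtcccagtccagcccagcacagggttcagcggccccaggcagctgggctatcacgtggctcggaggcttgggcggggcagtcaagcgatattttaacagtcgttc
Hadhb: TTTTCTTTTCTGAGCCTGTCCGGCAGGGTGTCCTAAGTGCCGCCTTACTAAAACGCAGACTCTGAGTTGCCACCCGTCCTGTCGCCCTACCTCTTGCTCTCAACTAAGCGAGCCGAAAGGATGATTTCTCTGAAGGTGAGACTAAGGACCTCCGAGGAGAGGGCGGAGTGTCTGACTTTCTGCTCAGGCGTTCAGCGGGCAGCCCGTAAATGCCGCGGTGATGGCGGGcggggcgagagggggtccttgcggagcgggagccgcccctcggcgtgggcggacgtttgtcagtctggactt

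Cells were clustered within each library without the members, and clusters were named from marker genes. Stem-like clusters and cycling ones were pooled as stem/TA-like cells (TA, transit-amplifying), with 1429 cells in the epithelium-labelled library and 934 in the GFP-labelled library. Colonocyte-like cells numbered 1951 and 1533, and goblet-like cells 1159 and 903. The stem marker Lgr5 was at 21.1 CPM in stem/TA-like cells of the epithelium-labelled library and at 3.15 CPM in those of the GFP-labelled library. The 1 stem-like cluster of the GFP-labelled library had DNA replication genes such as Mcm3 and Cdt1 among its leading genes beside Ascl2, and Lgr5 at 3.47 CPM, so stem-like cells of that library are described only within the pool. Shallow clusters that stayed unnamed held 19.4% and 28.7% of kept cells, and other unnamed clusters 10.2% in each library. The members together made up 3394 CPM of stem/TA-like, 5338 CPM of colonocyte-like and 2596 CPM of goblet-like cells in the epithelium-labelled library. In the GFP-labelled library these sums were 3283, 5573 and 2626 CPM. In both libraries colonocyte-like cells had the highest sum of these classes and goblet-like cells the lowest. Fabp2, a binding protein and not an oxidation enzyme, was the largest part of the colonocyte-like sums, at 30.3 and 40.1 UMIs per cell. Etfb came next, at 6.15 and 7.45 UMIs per cell.

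**Figure D1:**
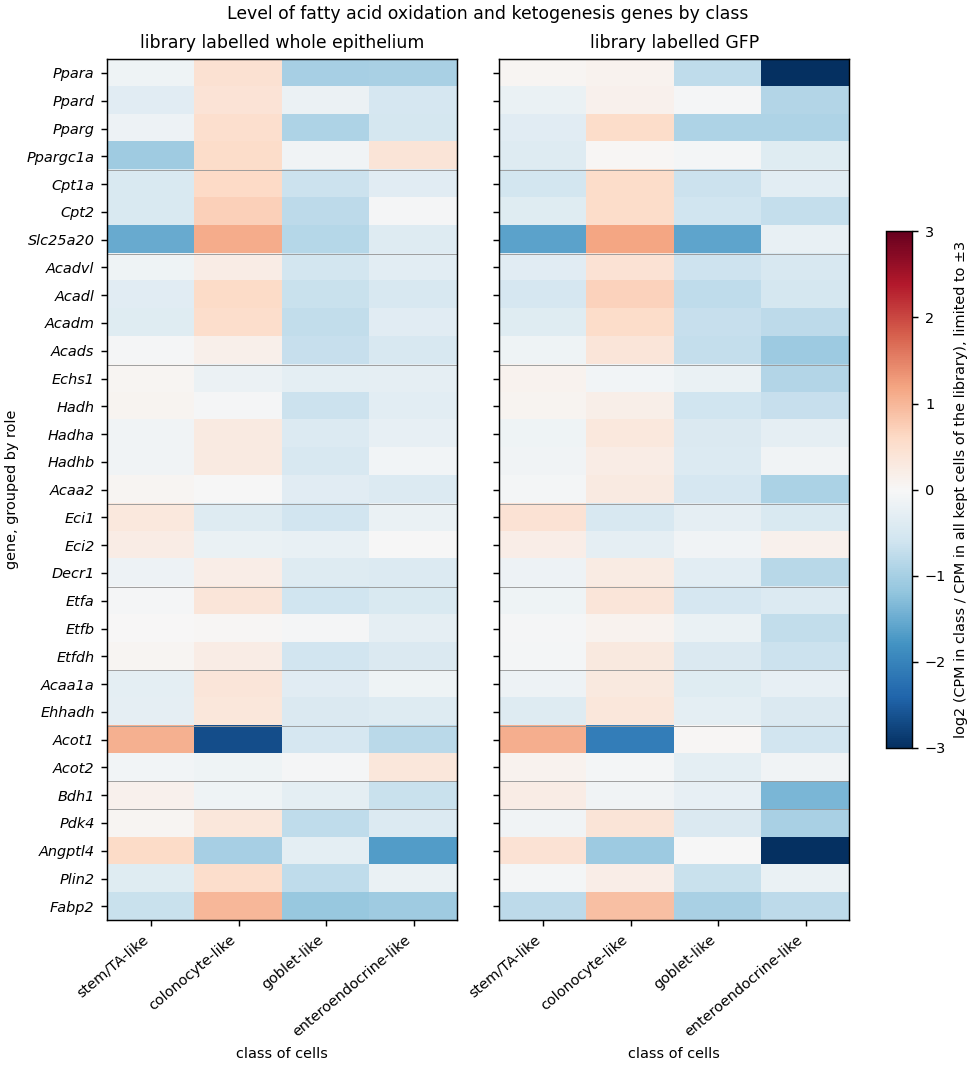
Rows are the 31 members other than Cd36, grouped by role, columns are classes of cells, and color is the log2 ratio of CPM in the class to CPM in all kept cells of that library (limited to ±3). Slc25a20 and Fabp2 are reddest in colonocyte-like cells, and Acot1 is red in stem/TA-like and blue in colonocyte-like cells of both libraries.

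From the crypt base to the colonocyte compartment, the 3 genes of the carnitine shuttle were called higher, and the 5 genes of the hydratase, hydroxyacyl dehydrogenase and thiolase steps were not called, a contrast that depends in part on the scale. In the epithelium-labelled library 12 of 31 members were called higher in colonocyte-like than in stem/TA-like cells, against 20.1% of 12980 genes, and 3 were called lower, against 46.2%. In the GFP-labelled library 9 were called higher (16.9% of 12434 genes) and 3 lower (51.4%). The same 8 members were called higher in both (15.2% of genes) and 3 lower in both (43.3%), and 0 went opposite ways (0.334%). These ratios compare shares of UMIs and not amounts per cell. Median depths were 26254 UMIs in stem/TA-like against 16622 in colonocyte-like cells, and 25178.5 against 18719 in the GFP-labelled library. Per cell of the epithelium-labelled library, Slc25a20 went from 1.29 to 5.18 UMIs, while Ehhadh, also called higher, went from 0.458 to 0.444. The median log2 ratio of the members was 0.38 and 0.40, beside -0.46 and -0.63 for all genes. All genes are not matched to the members in level. Median CPM in colonocyte-like cells was 112.1 for the members and 11.2 for all genes, and 88.2 and 11.3 in the GFP-labelled library. Among genes with at least 100 UMIs, the medians of all genes were -0.39 and -0.57. The counts depend on the scale: with a median-of-ratios size factor in place of total UMIs, 18 members were higher and 2 lower in the epithelium-labelled library, and 21 and 2 in the GFP-labelled library. That scale moved the median of all genes to -0.23 and -0.22 and that of the members to 0.62 and 0.82. Median mitochondrial shares of UMIs also moved along this axis, from 6.20% to 12.6% and from 6.24% to 13.8%. With mitochondrial genes left out of the total, 13 members were higher and 3 lower in the epithelium-labelled library, and 11 and 3 in the GFP-labelled library. With at most 10% mitochondrial UMIs these counts were 15 and 1, and 12 and 2. The median of all genes was -0.38 and -0.54 without mitochondrial genes, and -0.26 and -0.52 with at most 10% mitochondrial UMIs. The shares of all genes called under these alternatives were not counted, so the members' counts there have no background. Beyond these values, the part of the mitochondrial share was not tested.

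The carnitine shuttle was called higher in colonocyte-like cells at all 3 of its members in both libraries. Slc25a20, the carnitine-acylcarnitine carrier (GRCm38 chr9:108662088-108684641), had the highest ratio of the 31 members compared. It was at 43.8 CPM in stem/TA-like and 273.3 CPM in colonocyte-like cells of the epithelium-labelled library, and at 34.5 and 241.2 CPM in the GFP-labelled library. The log2 ratios were 2.64 (interval 2.57 to 2.71) and 2.80 (2.71 to 2.90). Cpt1a, the rate-limiting acyltransferase of the outer membrane, went from 54.2 to 112.1 CPM and from 41.7 to 88.2 CPM, with log2 ratios of 1.05 and 1.08. Cpt2, its partner in the inner membrane, had log2 ratios of 1.17 and 0.93.

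Among the 4 acyl-CoA dehydrogenases, the long-chain enzyme Acadl and the medium-chain enzyme Acadm were called higher in both libraries. Acadl went from 142.7 to 267.3 CPM and from 123.1 to 281.8 CPM. Its log2 ratios were 0.91 and 1.19, and those of Acadm were 0.89 and 0.90. The very-long-chain enzyme Acadvl was called in the GFP-labelled library alone (0.77, against 0.37), and the short-chain enzyme Acads in neither (0.19 and 0.48). Whether the libraries differ in these ratios was not tested.

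None of the 5 hydratase, hydroxyacyl dehydrogenase and thiolase genes was called in either library. Hadha and Hadhb, which share the divergent start printed above, lay at 176.6 and 121.9 CPM in stem/TA-like and 230.0 and 159.0 CPM in colonocyte-like cells of the epithelium-labelled library. Their log2 ratios were 0.38 and 0.38 there, and 0.46 and 0.34 in the GFP-labelled library. Echs1, the short-chain hydratase, had ratios of -0.25 and -0.17, Hadh, the hydroxyacyl dehydrogenase, -0.10 and 0.09, and Acaa2, the thiolase, -0.07 and 0.32. With the median-of-ratios scale Hadha (0.62 and 0.88) and Hadhb (0.62 and 0.75) passed the limit in both libraries and Acaa2 (0.73) in the GFP-labelled one. With equal weight per cell Echs1 was called lower in the epithelium-labelled library (-0.59). Echs1 (-0.65) and Acaa2 (-0.63) passed as lower in that library with the landmark order described below. The electron carriers were not called either, with log2 ratios from 0.03 (Etfb) to 0.40 (Etfa) and from 0.15 to 0.49. Of the peroxisomal members, Ehhadh, the bifunctional enzyme, was called higher in both (0.59 and 0.72) and the thiolase Acaa1a in the epithelium-labelled library (0.65, against 0.44). The ratio of 0.59 lies at the 1.5-fold limit and was 0.39 with the landmark order described below.

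Lower in colonocyte-like cells were Acot1, Eci1 and Angptl4. Acot1, a thioesterase that frees fatty acids from coenzyme A in the cytosol (GRCm38 chr12:84009490-84018371), was at 30.8 CPM in stem/TA-like and 2.30 CPM in colonocyte-like cells of the epithelium-labelled library, and at 17.8 and 1.99 CPM in the GFP-labelled library. Its log2 ratios were -3.74 (interval -4.08 to -3.43) and -3.15 (-3.56 to -2.77). In the epithelium-labelled library the colonocyte-like level, 0.0436 UMIs per cell, was near the 0.0398 UMIs per cell of a leukocyte cluster that serves as a measure of free RNA. The neighbouring paralog Acot2, a mitochondrial thioesterase, had ratios of -0.04 and -0.16. How the counting step treated reads that fit both paralogs is not given in the sources used here, so the split between them is uncertain. Eci1, the isomerase for unsaturated fatty acids, had log2 ratios of -0.72 and -0.90, which were -0.48 and -0.49 with the median-of-ratios scale and so not called. With at most 10% mitochondrial UMIs the ratio of Eci1 in the epithelium-labelled library was -0.06, and at resolutions 0.5 and 2.0 it was -0.21 and -0.44. The other isomerase Eci2 (-0.43 and -0.48) and the reductase Decr1 (0.36 and 0.40) were not called. Eci2 passed as lower with the landmark order (-0.74 and -0.78) and with equal weight per cell (-0.69 and -0.63). Decr1 passed as higher with the median-of-ratios scale (0.60 and 0.82). Angptl4, a secreted inhibitor of lipoprotein lipase, went from 4.40 to 1.49 CPM and from 1.09 to 0.38 CPM. Its log2 ratio in the epithelium-labelled library was -0.03 with at most 10% mitochondrial UMIs and turned to 0.69 at the coarser clustering resolution of 0.5, so its direction is not settled.

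The 4 regulators were not called alike. Pparg was called higher in colonocyte-like cells of both libraries, with log2 ratios of 0.65 and 0.89. Ppargc1a went from 16.5 to 50.7 CPM in the epithelium-labelled library, a log2 ratio of 1.62 (interval 1.49 to 1.75), and from 13.9 to 18.4 CPM in the GFP-labelled library, 0.41 (0.22 to 0.60). Ppard was called in the former alone (0.75 and 0.34), and Ppara in neither (0.57 and 0.05). Ppara lay just under the limit in the epithelium-labelled library, passed it in 7 of 13 alternatives there (up to 1.01), and was 0.77 in the GFP-labelled library with at most 10% mitochondrial UMIs. Of the lipid genes, Fabp2, the intestinal fatty acid binding protein, was called higher in both. It was at 504.0 and 1597 CPM in stem/TA-like and colonocyte-like cells of one library and at 608.0 and 1944 CPM in the other, with log2 ratios of 1.66 and 1.68. Plin2, the lipid droplet coat protein, was called in the epithelium-labelled library (0.89, against 0.26). Pdk4, the kinase that turns off pyruvate dehydrogenase, was called in neither (0.28 and 0.50), but reached 1.04 at resolution 0.5 in the epithelium-labelled library and 1.09 with equal weight per cell in the GFP-labelled one. Bdh1, which interconverts the ketone bodies, was not called either (-0.25 and -0.31), but passed as lower with the landmark order (-0.61 and -0.61). Cd36, a fatty acid translocase, had 11 and 3 UMIs in all kept cells, too few for any comparison.

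**Figure D2:**
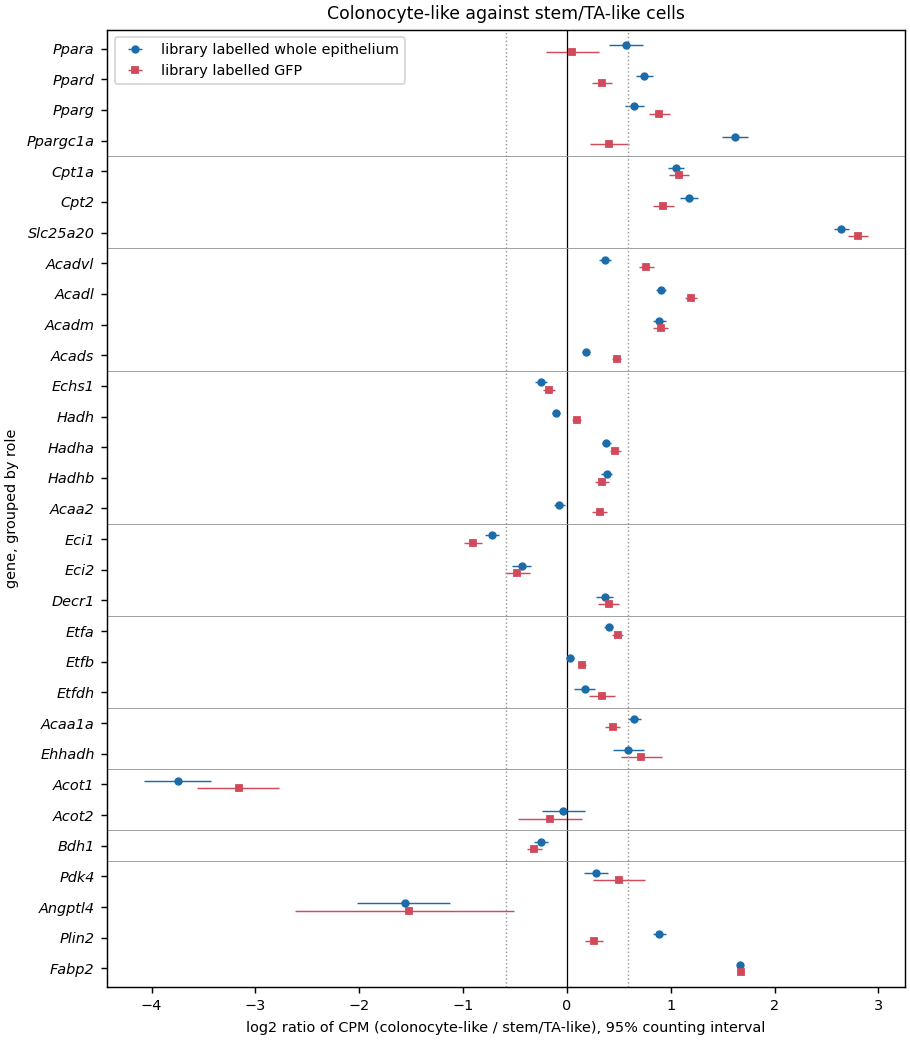
Each point is the log2 ratio of CPM in colonocyte-like to stem/TA-like cells for 1 member, with its 95% counting interval, for the 2 libraries. Dotted lines mark 1.5-fold, and the carnitine shuttle lies beyond the right line in both libraries while Acot1 lies far to the left.

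Another 68 genes of fatty acid uptake, activation, oxidation, ketone bodies and lipid storage were read in the same way. In the epithelium-labelled library 25 of 62 tested were called higher in colonocyte-like cells (20.1% of all genes) and 15 lower (46.2%), and in the GFP-labelled library 25 of 61 higher (16.9%) and 14 lower (51.4%). In both libraries 22 were called higher (15.2%) and 13 lower (43.3%). Mgll, the monoacylglycerol lipase, had log2 ratios of 4.25 and 4.11. The ω-hydroxylase Cyp4f14 had 4.06 and 3.88, and Creb3l3, a transcription factor of lipid metabolism, 4.21 and 3.68. Fabp5, a fatty acid binding protein, was lower at -3.47 and -3.67, and the medium-chain acyl-CoA synthetase Acsm3 at -2.76 and -2.17.

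Ordering the stem/TA-like and colonocyte-like cells by a landmark score (colonocyte and surface markers less stem and cycling markers) and dividing them into 5 bins of equal size placed many members highest in the middle. In the epithelium-labelled library 17 of 31 members were highest in bin 3. In the GFP-labelled library 12 were highest in bin 4 and 7 in bin 3, and 14 members had the same highest bin in both. The highest bins of all genes were not counted, so whether the members differ from other genes in this is not known. Acads went from 224.3 to 382.6 to 226.3 CPM over bins 1, 3 and 5 of the epithelium-labelled library. Cpt1a went from 46.0 to 124.3 to 93.2 CPM. Slc25a20, Fabp2, Acadl and Etfa were highest in bin 5 of both libraries: Fabp2 went from 388.5 to 2675 CPM and from 546.6 to 3137 CPM. Acot1 was highest in bin 1 of both, at 36.0 and 19.8 CPM, and lay at 0.5 and 0.4 CPM in bin 5. The score is a range and not a set of types: 19.6% and 18.5% of the cells lay within 5% of a standard deviation of a boundary.

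**Figure D3:**
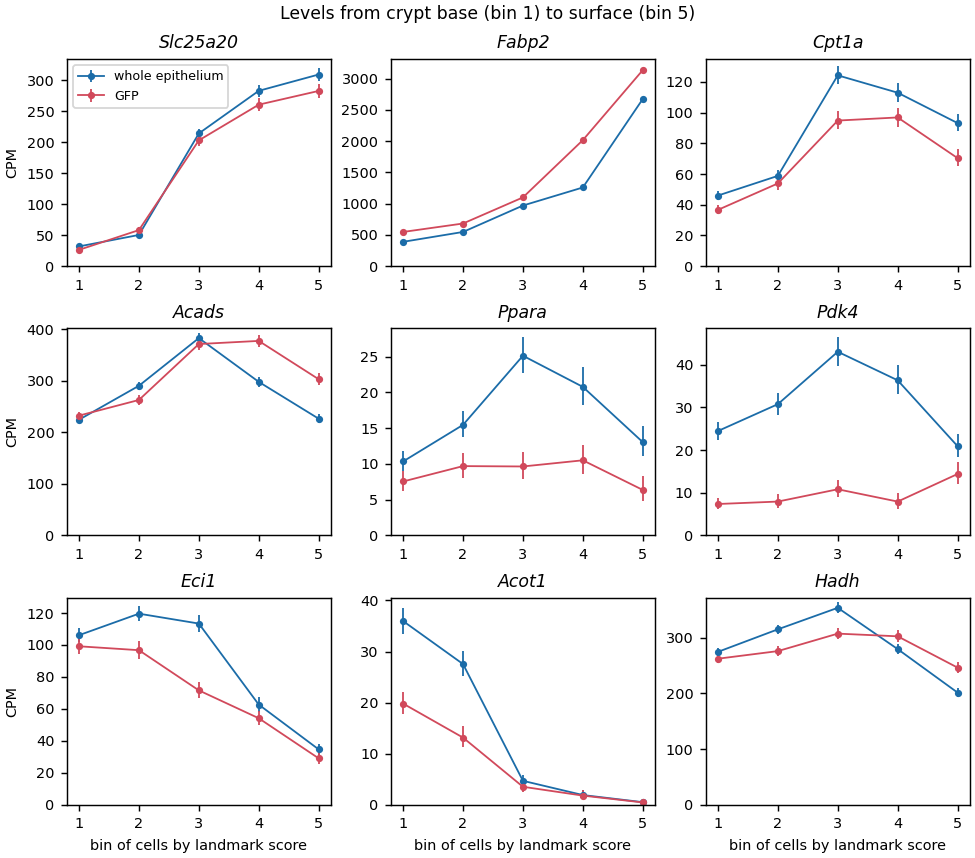
Lines give CPM with 95% counting intervals for 9 members over 5 equal bins of cells ordered from crypt base to surface, for each library. Slc25a20 and Fabp2 climb to the last bin, Cpt1a and Acads bend down after the middle in the epithelium-labelled library, Acot1 descends, and Eci1 ends lowest in the last bin after a rise to bin 2 in the epithelium-labelled library.

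Goblet-like cells, the mucus-secreting lineage, gave a smaller share of their UMIs to the members than colonocyte-like cells. Shares are not amounts per cell: median depths were 15657 against 16622 UMIs in the epithelium-labelled library and 27453 against 18719 in the GFP-labelled library. In each library 20 of 31 members were called lower in goblet-like cells (18.3% of genes in the epithelium-labelled library and 16.7% in the GFP-labelled library) and 2 higher (43.9% and 49%). The median log2 ratio of the members was -0.75 and -0.76, beside 0.41 and 0.56 for all genes. This comparison shares its colonocyte-like cells with the one above. Slc25a20 had ratios of -1.97 and -2.77, Fabp2 -2.15 and -1.87, and Cpt2 -1.51 and -1.14. The others called lower in both libraries were Ppara, Pparg, Cpt1a, the 4 acyl-CoA dehydrogenases, Hadh, Hadha, Hadhb, Etfa, Etfdh, Acaa1a, Ehhadh, Pdk4 and Plin2. Ppargc1a (-0.65) was called lower in the epithelium-labelled library alone and Acaa2 (-0.76) in the GFP-labelled library alone. The 2 called higher were Acot1 (2.16 and 2.097) and Angptl4 (0.69 and 1.09). With each cell given equal weight, 13 members and not 20 were called lower in the epithelium-labelled library, where the median of all genes was then 0.42.

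Within a class, clusters differed with the level of Hoxb13, a homeobox gene known for expression in the distal colon. Among the stem-like, cycling, colonocyte-like and goblet-like cells of each library, where at least 2 clusters of 100 or more cells were not shallow, the cluster lowest in Hoxb13 was set against the highest. The cycling pair of the GFP-labelled library was left out because 2 stem markers and 0 cycling markers were among the leading genes of its Hoxb13-high cluster. This gave 6 pairs, a rule settled after the data had been seen, and the paired clusters can differ in more than position. The cycling pair had Hoxb13 at 9.09 against 39.0 CPM and the cycling marker Mki67 at 195.4 against 371.2 CPM. The goblet-like pair of the epithelium-labelled library had Hoxb13 at 32.0 against 308.6 CPM and the surface marker Krt20 at 27.9 against 103.6 CPM. The 6 pairs are therefore not alike as contrasts of position. In colonocyte-like cells of the epithelium-labelled library (Hoxb13 4.002 against 509.2 CPM), 20 members were called higher in the Hoxb13-low cluster, against 19.7% of genes, and 1 lower (11.8%). In those of the GFP-labelled library (5.75 against 213.6 CPM), 23 were higher (19.4%) and 1 lower (12.6%). Stem-like cells of the epithelium-labelled library had 11 higher (11.9%) and 0 lower (8.11%). Cycling clusters of that library had 2 higher (6.15%), Fabp2 and Angptl4, and 0 lower (7.15%). Goblet-like cells had 4 higher (15%) and 6 lower (8.64%) in the epithelium-labelled library and 6 higher (10.3%) and 0 lower (6.27%) in the GFP-labelled library. The 6 lower were Angptl4, Plin2, Acot2, Acaa2, Slc25a20 and Ppargc1a, with log2 ratios from -0.82 to -0.60.

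Fabp2 was at least 1.5-fold higher in the Hoxb13-low cluster of all 6 pairs, as were 0.227% of 9710 genes, with log2 ratios from 0.63 to 3.29. Of the members 0 were lower in all 6 (0.34% of genes), and with a median-of-ratios scale 0 members passed as higher in all 6. In colonocyte-like cells Fabp2 was at 1678 against 171.7 CPM in the epithelium-labelled library and at 2990 against 354.3 CPM in the GFP-labelled library. Pdk4 was called higher in 5 of 6 pairs, with log2 ratios from 0.00 to 4.45. It was at 32.8 against 4.06 CPM in stem-like cells and 55.5 against 10.9 CPM in colonocyte-like cells of the epithelium-labelled library, and at 28.5 against 1.30 CPM in colonocyte-like cells of the GFP-labelled library. Ppara was called higher in 5 of 6 pairs (0.46 to 3.75). Etfb was called higher in 4 pairs. Angptl4 was called higher in 3 of the 4 pairs in which it had enough UMIs and lower in 1. Called higher in 3 pairs were Acads, Cpt1a, Ehhadh, Pparg, Acot1 and Acot2. In colonocyte-like cells Acadvl, Hadh, Decr1, Eci2 and Bdh1 were also called higher in both libraries. Echs1 and Etfa were called there in the epithelium-labelled library alone, and Cpt2, Acadm, Acaa1a, Hadha and Hadhb in the GFP-labelled library alone. In stem-like cells Slc25a20 (1.11), Hadhb (0.59) and Ppargc1a (0.59) were also called higher. The thiolase Acaa2 and the isomerase Eci1, not called or lower along the crypt axis, differed here: in colonocyte-like cells Acaa2 was at 233.3 against 68.3 CPM and 198.8 against 54.2 CPM, and Eci1 at 113.6 against 32.5 CPM and 87.3 against 32.9 CPM. Ppargc1a was the member called lower in colonocyte-like cells of the epithelium-labelled library, at 38.9 against 82.8 CPM. It was called higher in those of the GFP-labelled library, at 23.0 against 14.8 CPM (0.63). The member called lower there was Ppard (-0.63). Of the other pathway genes, Fabp5 was called higher in all 6 pairs.

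**Figure D4:**
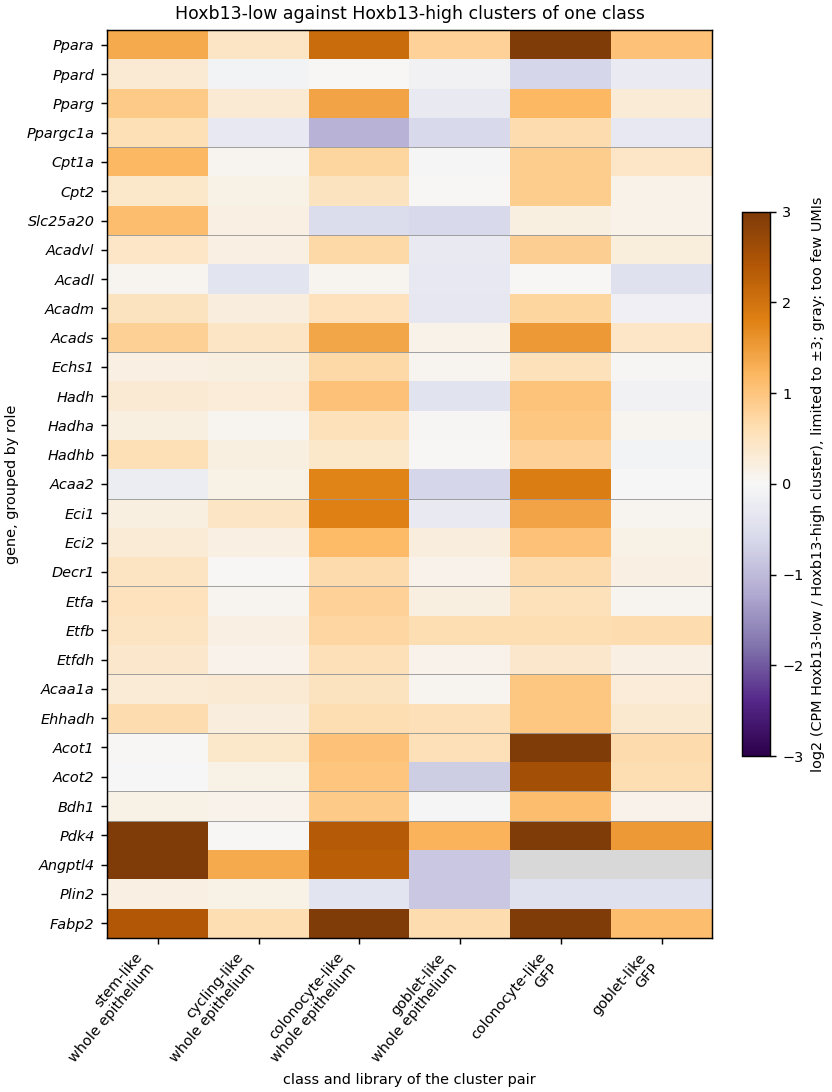
Rows are the 31 members other than Cd36 and columns are the 6 cluster pairs. Color is the log2 ratio of CPM in the Hoxb13-low to the Hoxb13-high cluster (limited to ±3), gray marks too few UMIs, and Ppara, Pdk4 and Fabp2 are orange to brown in nearly every column.

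Between the libraries most members were not called, and Pdk4 and Angptl4 were the furthest apart, both lower in the GFP-labelled library. Over all kept cells 0 of 31 members were called higher (7.77% of 15223 genes) and 7 lower (16.2%). The median log2 ratio was -0.13, beside -0.03 for all genes. Pdk4 was at 26.8 CPM in the epithelium-labelled library and 8.25 CPM in the GFP-labelled library, a log2 ratio of -1.70 (interval -1.80 to -1.59). Angptl4 was at 2.94 and 0.81 CPM (-1.86), and the others called lower were Ppargc1a (-0.94), Acot2 (-0.82), Ppara (-0.81), Acot1 (-0.80) and Acaa2 (-0.61). The highest ratios were those of Fabp2 (0.39) and Pparg (0.30), neither called. Of 65 other pathway genes tested, 4 were called higher and 9 lower, among them the fatty acid ω-hydroxylase Cyp4b1 (-1.59), Creb3l3 (1.24) and the desaturase Scd1 (1.08).

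Matched by class, 6 members were called lower in the GFP-labelled library in each of 3 classes and 0 higher. The backgrounds were 14% lower and 8.08% higher in colonocyte-like, 9.67% and 8.62% in stem/TA-like, and 11.5% and 7.26% in goblet-like cells. Pdk4, Angptl4 and Acot2 were called lower in all 3 classes. Pdk4 was at 34.0 and 10.8 CPM in colonocyte-like, 28.0 and 7.61 CPM in stem/TA-like, and 15.7 and 6.11 CPM in goblet-like cells. Ppara was called lower in colonocyte-like (-1.16) and stem/TA-like cells (-0.64), and Ppargc1a in colonocyte-like (-1.46) and goblet-like cells (-0.89). Acaa2 was called lower in stem/TA-like (-0.73) and goblet-like cells (-0.75). Plin2 was called in colonocyte-like cells alone (-0.73), Acot1 in stem/TA-like cells alone (-0.79) and Slc25a20 in goblet-like cells alone (-0.98). Several of these calls depend on the clustering or the mitochondrial limit. At resolution 0.5 the stem/TA-like ratios of Ppara, Acot1, Angptl4 and Acaa2 were -0.14, -0.36, -0.54 and -0.54, all short of the limit. With at most 10% mitochondrial UMIs Slc25a20 in goblet-like cells was -0.35 and Plin2 in colonocyte-like cells -0.45, and with joint clustering Acot2 in colonocyte-like cells was -0.53. Goblet transcripts also differed within these classes: Retnlb was at 16.5 and 1025 CPM in colonocyte-like and 21.3 and 934.2 CPM in stem/TA-like cells, and Muc2 at 245.1 and 642.5 CPM and at 191.4 and 636.6 CPM. Their part in the ratios was not tested. Whether the ratios differ between classes was not tested.

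Hoxb13 also differed between the libraries within a class. It was at 133.5 and 82.5 CPM in colonocyte-like, 52.1 and 106.0 CPM in stem/TA-like, and 143.8 and 94.1 CPM in goblet-like cells. From stem/TA-like to colonocyte-like cells Hoxb13 thus rose in the epithelium-labelled library and fell in the GFP-labelled library. The part of this in the crypt-axis ratios was not tested. Pdk4 was lower in the GFP-labelled library on both sides of the colonocyte-like pairs, at 55.5 and 28.5 CPM in the Hoxb13-low clusters and 10.9 and 1.30 CPM in the Hoxb13-high ones. For Ppara these values were 31.8 and 21.05 CPM, and 7.38 and 1.56 CPM. For Ppargc1a they were 38.9 and 23.0 CPM, and 82.8 and 14.8 CPM. These clusters were made in each library alone and are not matched in Hoxb13, which was at 509.2 and 213.6 CPM in the Hoxb13-high ones. The part of position in the differences between the libraries was not tested. Free RNA stood lower than the classes for most members: the lowest of the 3 class levels was at least 2.56 times the leukocyte cluster's UMIs per cell in the epithelium-labelled library, except for Acot1 (1.09), Angptl4 (1.27) and Acot2 (1.65).

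**Figure D5:**
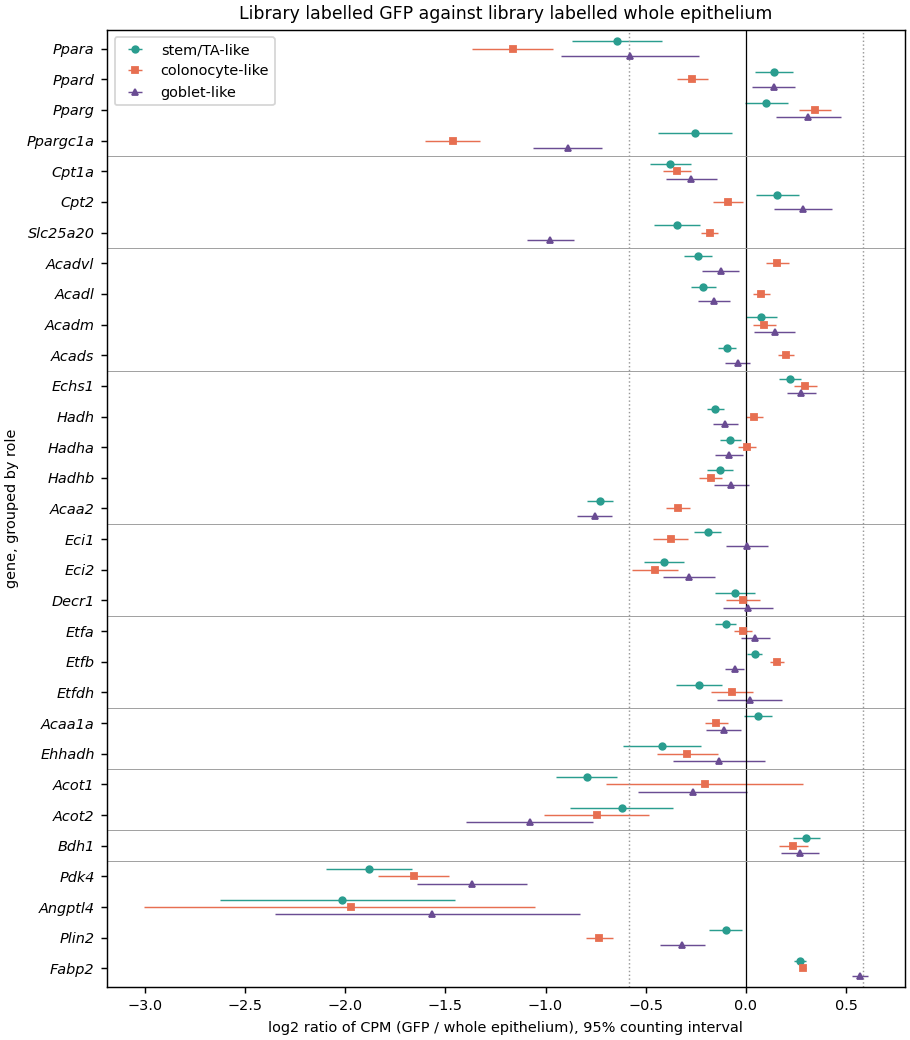
Each point is the log2 ratio of CPM in the GFP-labelled library to the epithelium-labelled library for 1 member in 1 of 3 classes, with its 95% counting interval. Dotted lines mark 1.5-fold, and Pdk4, Angptl4 and Acot2 lie left of the left line in all 3 classes.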

How the data were processed

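Droplet single-cell RNA sequencing (3' v2 chemistry, per the labels' protocols) was done on 2 libraries. The deposited values are raw UMI counts per gene and barcode on mm10, made by the authors with Cell Ranger 2.1.1 per the submitters' processing notes, while the file headers name version 3.1.0. Barcodes were kept with 500 or more genes, 1000 or more UMIs and a mitochondrial share up to 25% (55.6% and 42.5%). The median mitochondrial share of kept cells was 8.27% and 8.25%. Over all barcodes it was 15.2% in the epithelium-labelled library and 31.2% in the GFP-labelled library, and 38.2% and 57.5% of barcodes were over the limit. The filter thus took a larger part of the GFP-labelled library, and its part in the differences between the libraries was not tested beyond the other mitochondrial limits. Doublets were kept and no caller was run. Counts were scaled to 10000 per cell, and clustering (scanpy 1.11.5, leidenalg 0.10.2, resolution 1.0, 2000 variable genes, 30 components, 15 neighbours) left out the members, the other pathway genes, mitochondrial and sex-linked genes. The 3' counts were summed per class and given as CPM, and intervals came from scipy 1.17.1 and were checked on simulated data.

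Marker scores (mean log2 fold against the library's median cluster) named clusters after their best class, with a score of at least 0.5, at least 3 markers 2-fold up and at least 20 cells. Clusters under 1/3 of the library's median UMIs needed a score of 2.0. That score was raised from 1.5 after cluster names had been seen, and 2 shallow clusters, of 552 and 1111 cells, scored between these values. The Hoxb13 pairs, the motif tolerance and the windows shown were also chosen after seeing the data. The members and lists were chosen with earlier results of these data known. Every member is accounted for, members called are named, and values in full are given for some of them; of the other pathway genes, the named ones are among the 8 largest called in a comparison or called in all Hoxb13 pairs. The alternatives were other mitochondrial, UMI and gene limits, scales, clusterings and a landmark order. The result for 1 gene of the wider pathway list is not reported here.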

Additional observations from a re-analysis of the deposited data

Results flagged for a closer look

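Acaa2, the mitochondrial thiolase, had a log2 ratio of colonocyte-like over stem/TA-like cells of -0.0734 in the epithelium-labelled library and 0.316 in the GFP-labelled library, opposite signs with counting intervals that leave out 0. Hadh, the hydroxyacyl dehydrogenase, likewise had -0.101 and 0.0946. Neither gene was called in either library with the main settings, and the difference between the libraries was not tested. The 2 classes are not matched in Hoxb13. From stem/TA-like to colonocyte-like cells it went from 52.1 to 133.5 CPM in the epithelium-labelled library and from 106.0 to 82.5 CPM in the GFP-labelled library. Its part in these ratios was not tested. The signs depend on the processing. Acaa2 kept its sign in 7 of 13 alternatives in the epithelium-labelled library (-0.63 to 0.30) and in 13 of 13 in the GFP-labelled library (0.09 to 0.73). Hadh kept its sign in 9 of 13 (-0.45 to 0.29) and in 10 of 13 (-0.09 to 0.51).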

How the results depend on the processing

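No paired analysis was possible because each group has 1 library. Over the alternatives run, the members' median along the crypt axis stayed above 0 in both libraries (0.23 to 0.62 and 0.27 to 0.82), and over all kept cells between the libraries it stayed below 0 (-0.20 to -0.04). In the GFP-labelled library the axis median was 0.54 with at most 10% mitochondrial UMIs and 0.82 with the median-of-ratios scale, which also gave 21 members higher there and 17 higher in both libraries. Members lower along the axis numbered 1 in the epithelium-labelled library with at most 10% mitochondrial UMIs and at resolution 0.5, as they did in both libraries together. They numbered 5 there with equal weight per cell, and with the landmark order 7 in that library, 5 in the GFP-labelled library and 5 in both. Angptl4 turned to 0.69 in the epithelium-labelled library at resolution 0.5. Goblet-like against colonocyte-like cells, under scales added after seeing the data, had a median of -0.52 and 13 members lower with equal weight per cell in the epithelium-labelled library, 1 higher there with the median-of-ratios scale, and a median of -1.09 with it in the GFP-labelled library. Between the libraries in goblet-like cells, 1 member was higher with at most 50% or 10% mitochondrial UMIs, at least 5000 UMIs per barcode, resolution 0.5, joint clustering or without shallow clusters. In stem/TA-like cells resolution 0.5 gave 1 higher and 3 lower, and in colonocyte-like cells joint clustering gave a median of 0.0465. With the median-of-ratios scale 0 members were higher in all Hoxb13 pairs. Shares of all genes called were not counted under the alternatives, so these counts stand without a background. The causes were not tested. Depth limits Cd36 and Angptl4, the latter with 88 UMIs in the GFP-labelled library.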
